A study of Mus musculus with 120 samples.

Results

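The 26-week striatum of 175QK772T mice was compared with that of WT mice over all genes. The 8 libraries are those whose labels give striatum, 26 weeks and either genotype, 4 per genotype and 1 per mouse, of 120 libraries in the study. A 175QK772T mouse carries 1 Atxn1 allele with the expanded CAG repeat named 175Q and with K772T, an amino-acid change within ataxin-1's nuclear localization signal, beside a normal 2Q allele. A WT mouse carries no expanded allele. The genotype labels give the line as 175QK772T at both ages, while the descriptions of the 26-week libraries write a shorter repeat for both 175QK772T and 175Q; the genotype labels are used here. Mice of the 175Q genotype, which have the expanded repeat with the signal intact over a 2Q allele, serve below as a further comparison. All mice were C57BL/6J. Each genotype had 2 females and 2 males at 26 weeks. At 10 weeks 175QK772T had 3 females and 1 male, against 2 females and 2 males in WT. The repeat sits in the endogenous gene, so the allele is expressed wherever Atxn1 is, and gene counts do not separate it from the normal allele.

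An expanded polyglutamine tract in ataxin-1 causes spinocerebellar ataxia type 1, a disease best known for the loss of cerebellar Purkinje cells. Ataxin-1 enters the nucleus through its nuclear localization signal, and there it binds the transcriptional repressor Capicua. The striatum is the input station of the basal ganglia. Most of its neurons are GABAergic projection neurons, of a direct pathway that carries the dopamine D1 receptor and an indirect pathway that carries the D2 receptor, and a minority are cholinergic and GABAergic interneurons.

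Total counts were 28650608 to 57281437 read pairs in 175QK772T and 35046292 to 47887867 in WT libraries. On the first principal component of log2 CPM (the counts-per-million scale), which held 43.7% of the variance, 175QK772T libraries lay at -11.7 to -7.19, WT libraries at 47.6 to 59.9 and 175Q libraries at -49.4 to -43.4. The second component (15.4%) set 175QK772T replicate 4 (36.8) apart from the other 175QK772T libraries (-39.2 to -24.6), and WT replicate 3 (-29.6) apart from the other WT libraries (9.7 to 19). Slc17a7, the vesicular glutamate transporter of cortical neurons, was at 441, 527, 508 and 26.6 CPM in 175QK772T replicates 1 to 4, against 149, 329, 753 and 307 CPM in WT replicates 1 to 4. The same 2 libraries thus had the lowest value in 175QK772T and the highest in WT, and the summed level of 12 cortical glutamatergic markers was 225 to 956 CPM in 175QK772T and 376 to 1320 CPM in WT. Ttr, which the choroid plexus makes in large amounts, stood at 29.9, 6.54, 2850 and 17.4 CPM in 175QK772T, against 16.4, 293, 45.2 and 1780 CPM in WT. Counts of called genes are therefore also given without 175QK772T replicate 4 and WT replicate 3. The striatal label held in all 8 libraries, with Drd1 at no less than 55.4 CPM, Penk at no less than 161 CPM and Ppp1r1b at no less than 340 CPM.

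Atxn1 itself (GRCm38 chromosome 13, 45549755 to 45965008, minus strand) was at 126, 134, 122 and 117 CPM in 175QK772T striata, against 128, 136, 111 and 128 CPM in WT striata. The groups overlapped, and the log2 fold change of -0.02 ± 0.08 (standard error) did not pass the test (edgeR quasi-likelihood test, adjusted p = 0.917). Gmpr overlaps its exons on the opposite strand, and the strand setting of the 26-week counts is not stated.

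Of 19692 tested genes, 4600 differed between 175QK772T and WT at an adjusted p below 0.05 (23.4%), 2150 of them higher (10.9%) and 2450 lower (12.4%). Below, a gene rose or fell only if it passed this test, the quasi-likelihood F-test of edgeR with a sex term, adjusted by Benjamini-Hochberg over all tested genes with 4 mice per genotype, and ± after a log2 fold change is its standard error. Most changes were modest: the median log2 fold change was 0.41 among genes that rose and -0.52 among genes that fell, and 811 called genes passed 1 in size, 291 of them higher and 520 lower. The values of the 4 mice of each genotype did not overlap in 4553 tested genes (23.1%). Without the 2 libraries of outlying cortical markers 5233 genes were called, 2616 higher and 2617 lower, and 6055 were called with the summed cortical marker level as a covariate. Of 2424 genes averaging 100 CPM or more, 12.3% rose and 25.2% fell, while of 8151 genes between 10 and 100 CPM 14.1% rose and 14.3% fell.

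**Figure D1:**
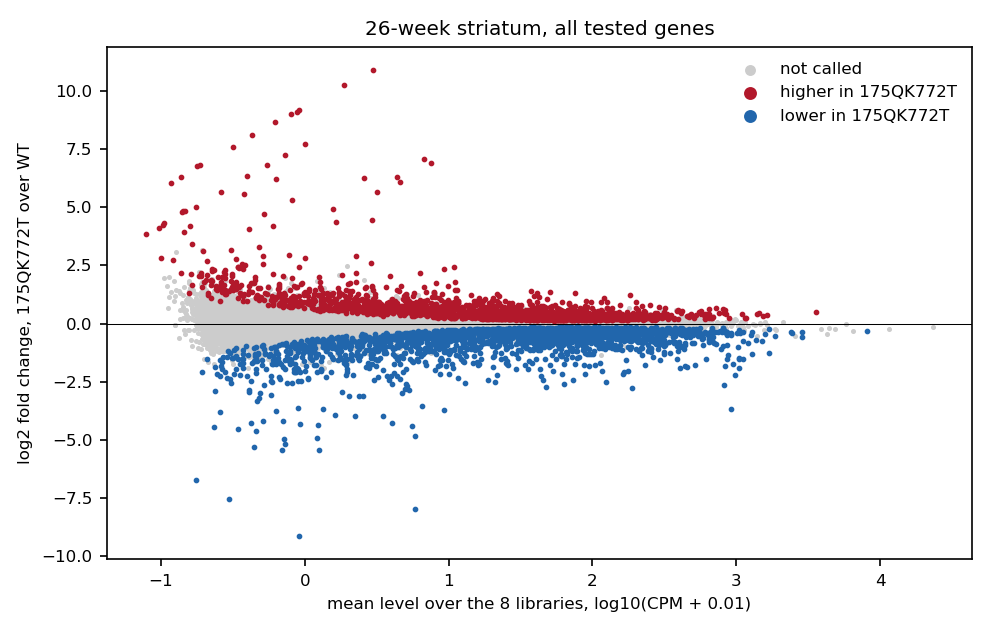
Log2 fold change of 175QK772T over WT (y axis) against the mean level of each tested gene over the 8 libraries (x axis, log10 scale), with 1 point per gene. Genes that passed the test are coloured by direction, 2150 higher and 2450 lower in 175QK772T, and among the most abundant genes more points lie below 0 than above it.

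Transcripts of the projection neurons were lower in 175QK772T mice. Of 23 tested genes shared by both classes of projection neuron 22 fell (95.7%, against 12.4% of all tested genes) and none rose. Their median log2 fold change was -1.35, against -0.01 over all genes. Scn4b, a beta subunit of voltage-gated sodium channels, changed most: it was at 109, 114, 132 and 175 CPM in 175QK772T, against 1830, 1760, 1230 and 1980 CPM in WT. The highest 175QK772T value lay far below the lowest WT value (-3.69 ± 0.17, edgeR adjusted p = 1.64e-07). Pde10a, a phosphodiesterase that degrades cAMP and cGMP, was at 315, 292, 330 and 459 CPM in 175QK772T, against 1760, 1830, 1100 and 1800 CPM in WT (-2.22 ± 0.16, edgeR adjusted p = 3.13e-06). Ppp1r1b encodes DARPP-32, a phosphatase inhibitor that relays dopamine signals. It was at 415, 340, 408 and 609 CPM in 175QK772T, against 1870, 1660, 1270 and 1840 CPM in WT (-1.92 ± 0.17, edgeR adjusted p = 1.08e-05). For each of these 3 genes the groups were apart, the highest 175QK772T library was replicate 4 and the lowest WT library was replicate 3. Another annotated gene overlaps Ppp1r1b on the opposite strand. In bulk tissue, fewer cells of a type and less RNA per cell cannot be told apart.

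Most of the other shared genes fell less. Adcy5, the main striatal adenylyl cyclase, averaged 370 CPM in 175QK772T and 1310 CPM in WT (-1.82 ± 0.13). Rasd2, which encodes the small GTPase Rhes, averaged 194 CPM in 175QK772T and 693 CPM in WT (-1.84 ± 0.14). Rgs9, which shortens G-protein signals (-1.89 ± 0.19), and Pde1b, a calmodulin-dependent phosphodiesterase (-1.73 ± 0.14), fell too (edgeR adjusted p at most 2.66e-05 for these 4 genes). Transcription factors of the lineage fell less: Bcl11b by 1.18, Foxp1 by 0.93, Meis2 by 0.79 and Foxp2 by 0.59 on the log2 scale (edgeR adjusted p at most 0.0364). Strip2 did not pass (-0.35 ± 0.18, edgeR adjusted p = 0.19), and Rasgrp2 had no counts. Without the 2 libraries of outlying cortical markers all 23 fell, with a median of -1.65.

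**Figure D2:**
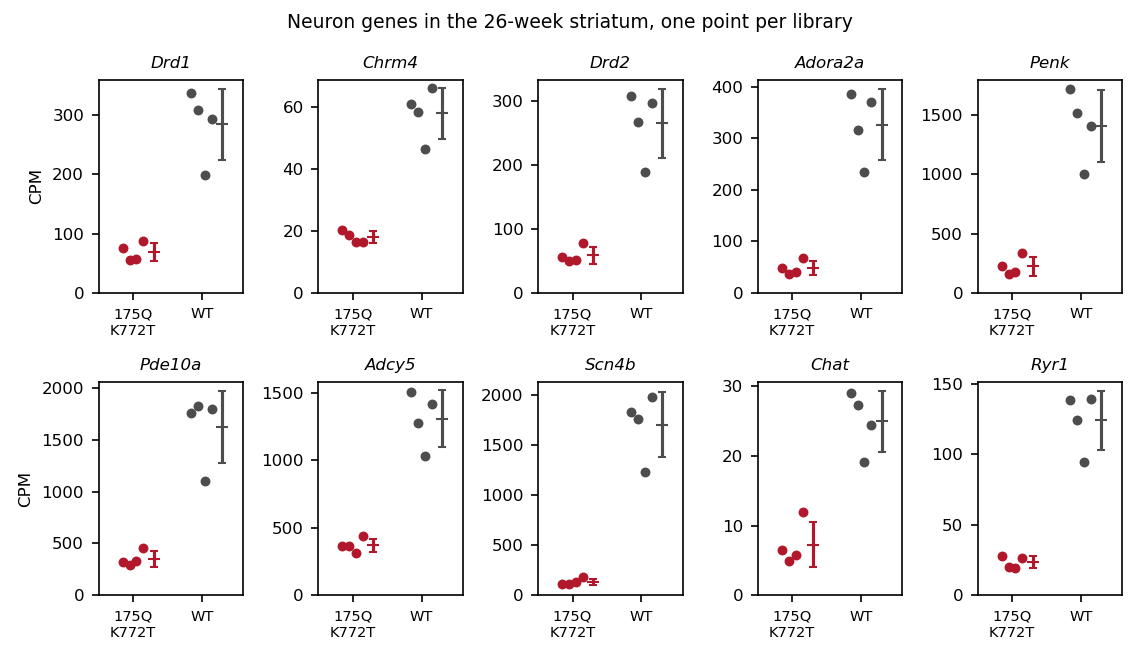
CPM in each library (points), with the mean and SD of 4 mice, for 10 neuron genes in 175QK772T (left) and WT (right). In each panel the 4 175QK772T values lie below the 4 WT values, as for Scn4b with at most 175 CPM in 175QK772T and at least 1230 CPM in WT.

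Genes of the indirect pathway had the lowest median change of the projection neuron lists. Drd2, the D2 receptor, was at 55.6, 49.6, 52.1 and 78.1 CPM in 175QK772T, against 309, 267, 189 and 298 CPM in WT (-2.18 ± 0.18, edgeR adjusted p = 5.92e-06). Adora2a, a Gs-coupled adenosine receptor, was at 47.3, 36.4, 40.6 and 67.6 CPM in 175QK772T, against 386, 316, 234 and 370 CPM in WT (-2.77 ± 0.23, edgeR adjusted p = 6e-06). Penk, the enkephalin precursor, was at 227, 161, 175 and 337 CPM in 175QK772T, against 1720, 1520, 1000 and 1410 CPM in WT (-2.66 ± 0.22, edgeR adjusted p = 6e-06), and a second annotated gene overlaps it on the opposite strand. None of the 3 overlapped between groups. Gpr6, an orphan receptor, fell as well (-2.42 ± 0.30, edgeR adjusted p = 0.000132). Of 7 tested genes 4 fell (57.1%, against 12.4% of all tested genes), with a median of -2.18 over the 7. Sp9, Grik3 and Ptprm did not pass (-0.34 ± 0.15, -0.29 ± 0.11 and -0.16 ± 0.06). The summed level of the 7 genes was 419 to 663 CPM in 175QK772T and 1680 to 2680 CPM in WT. Without the 2 libraries of outlying cortical markers 6 of the 7 fell.

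Direct-pathway genes moved less evenly. Drd1, the D1 receptor, was at 75.5, 55.4, 57.1 and 88.1 CPM in 175QK772T, against 338, 309, 199 and 293 CPM in WT (-2.04 ± 0.17, edgeR adjusted p = 6.33e-06). Chrm4, the muscarinic M4 receptor, was at 20.2, 18.7, 16.5 and 16.4 CPM in 175QK772T, against 60.9, 58.4, 46.5 and 66 CPM in WT (-1.70 ± 0.12, edgeR adjusted p = 3.19e-06). Neither gene overlapped between groups. Pdyn, the dynorphin precursor, averaged 38.8 CPM in 175QK772T and 106 CPM in WT (-1.44 ± 0.26, edgeR adjusted p = 0.00164). Tac1, the substance P precursor, was at 118, 89.8, 105 and 190 CPM in 175QK772T, against 222, 235, 137 and 198 CPM in WT; its groups overlapped, and it fell (-0.66 ± 0.21, edgeR adjusted p = 0.0365). Isl1 and Ebf1, transcription factors of the direct-pathway lineage, did not pass (-0.32 ± 0.24 and 0.14 ± 0.18). Eya1, a transcriptional coactivator, rose (0.62 ± 0.08, edgeR adjusted p = 0.000245). In all, 6 of 9 fell (66.7%, against 12.4% of all tested genes) and 1 rose (11.1%, against 10.9%), with a median of -0.66.

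Transcripts of cholinergic interneurons fell. Chat, the enzyme that makes acetylcholine, was at 6.41, 4.93, 5.72 and 12 CPM in 175QK772T, against 29.1, 27.3, 19.1 and 24.4 CPM in WT (-1.80 ± 0.23, edgeR adjusted p = 0.000153). The choline transporter Slc5a7 (-1.79 ± 0.30) and the vesicular acetylcholine transporter Slc18a3 (-1.43 ± 0.25) fell too (edgeR adjusted p at most 0.00145). Of the genes of GABAergic interneurons, Nos1 fell by 0.80, Npy by 0.76, Sst by 0.56 and Kit by 0.47 on the log2 scale (edgeR adjusted p at most 0.0063). Pvalb was at 19.1, 37.7, 33.3 and 26.1 CPM in 175QK772T, against 18.1, 20.6, 30.5 and 22.6 CPM in WT, and did not pass (0.34 ± 0.26, edgeR adjusted p = 0.38). Vip and Cck, which cortical interneurons also express, did not pass (-0.21 ± 0.73 and -0.24 ± 0.59); Vip was lowest in 175QK772T replicate 4 (0.866 CPM) and highest in WT replicate 3 (21.3 CPM). Altogether 10 of 14 tested interneuron genes fell (71.4%, against 12.4% of all tested genes) and none rose, with a median of -0.66.

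Receptors and enzymes of dopamine and cAMP signalling fell in 15 of 22 cases (68.2%) and rose in 2 (9.09%). Of all tested genes 12.4% fell and 10.9% rose. Hrh3, the histamine H3 receptor, was at 36.1, 32.5, 34 and 26.1 CPM in 175QK772T, against 149, 125, 151 and 156 CPM in WT, with the groups far apart (-2.18 ± 0.12, edgeR adjusted p = 5.37e-07). Htr1b, a Gi-coupled serotonin receptor, averaged 14.5 CPM in 175QK772T and 56.7 CPM in WT (-1.96 ± 0.15). Cnr1, the CB1 cannabinoid receptor, averaged 103 CPM in 175QK772T and 358 CPM in WT (-1.79 ± 0.16). Rgs4, which shortens Gi and Gq signals, averaged 238 CPM in 175QK772T and 803 CPM in WT (-1.76 ± 0.15; edgeR adjusted p at most 1.07e-05 for these 3 genes). Htr1b and Hrh3 overlap other annotated genes on the opposite strand. Htr2c, a Gq-coupled serotonin receptor (0.69 ± 0.13), and Prkacb, a catalytic subunit of protein kinase A (0.24 ± 0.06), rose (edgeR adjusted p at most 0.0136). The kappa opioid receptor Oprk1 fell (-1.59 ± 0.16, edgeR adjusted p = 2.4e-05), and the mu receptor Oprm1 did not pass (0.02 ± 0.14, edgeR adjusted p = 0.952).

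Of 20 glutamate receptor genes 9 fell (45%) and 1 rose (5%), while of all tested genes 12.4% fell and 10.9% rose. The metabotropic receptors Grm4 (-1.34 ± 0.13) and Grm5 (-0.78 ± 0.12) and the kainate receptor subunit Grik2 (-1.08 ± 0.14) fell (edgeR adjusted p at most 0.000535). The AMPA receptor subunits Gria1 and Gria2 and the NMDA receptor subunit Grin1 did not pass (-0.13 ± 0.08, -0.10 ± 0.08 and -0.19 ± 0.07), and Grin2d, another NMDA receptor subunit, rose (0.94 ± 0.16, edgeR adjusted p = 0.00146). Of 14 GABA receptor genes 4 fell (28.6%) and 1 rose (7.14%), beside the same shares of all tested genes. Gabrd, the subunit of extrasynaptic receptors, was at 45.2, 44, 46.1 and 51.9 CPM in 175QK772T, against 188, 158, 137 and 160 CPM in WT, without overlap (-1.78 ± 0.10, edgeR adjusted p = 5.37e-07). Gabra4 fell (-0.64 ± 0.11) and Gabrb1 rose (0.26 ± 0.06; edgeR adjusted p at most 0.00861), and as their exons overlap on opposite strands both values are uncertain. Without the 2 libraries of outlying cortical markers 3 GABA receptor genes fell and 4 rose, and 2 rose without WT replicate 1 or without WT replicate 3.

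Potassium channel genes fell in 15 of 27 cases (55.6%, against 12.4% of all tested genes) and none rose. Kcnh4, a voltage-gated channel subunit, was at 24.2, 19.9, 20.3 and 27.4 CPM in 175QK772T, against 81.9, 78.3, 69.7 and 85.1 CPM in WT, with no overlap (-1.78 ± 0.10, edgeR adjusted p = 5.37e-07). Its paralog Kcnh3 (-0.92 ± 0.10), the Kv4 auxiliary subunit Kcnip2 (-1.17 ± 0.09), the background channel Kcnk2 (-0.97 ± 0.10) and the inward rectifiers Kcnj2 (-0.94 ± 0.13) and Kcnj4 (-0.97 ± 0.11) fell as well (edgeR adjusted p at most 0.000316). Of 24 calcium signalling genes 13 fell (54.2%) and 1 rose (4.17%, against 10.9% of all tested genes). Ryr1, a ryanodine receptor that releases calcium from internal stores, was at 27.4, 20.2, 19.1 and 26.6 CPM in 175QK772T, against 138, 124, 94.4 and 139 CPM in WT (-2.40 ± 0.15, edgeR adjusted p = 9.02e-07). The groups were far apart, and other annotated genes overlap Ryr1 on the opposite strand. The neuronal calcium sensor Hpca (-1.49 ± 0.12), the inositol trisphosphate receptor Itpr1 (-0.93 ± 0.09) and the kinase subunit Camk2b (-0.77 ± 0.07) fell, and Cacna1b, the pore of N-type calcium channels, rose (0.41 ± 0.09; edgeR adjusted p at most 0.0045 for these 4 genes). Without the 2 libraries of outlying cortical markers 14 potassium channel genes fell and 3 rose, and 16 calcium signalling genes fell and 5 rose; 3 calcium signalling genes rose without 175QK772T replicate 4 alone.

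The 12 largest falls by fold, among calls that averaged 1 CPM or more and did not overlap, were mostly of genes of low to moderate level. Gpx6, a glutathione peroxidase, was at 0.0829, 0.026, 0 and 0.051 CPM in 175QK772T, against 12.1, 10.3, 11.5 and 12.5 CPM in WT. That is 7 read pairs in the 4 175QK772T libraries and 1821 in the 4 WT libraries (-7.97 ± 0.35, edgeR adjusted p = 1.44e-07). Tmprss6, a membrane protease, was at 0, 0, 0.105 and 0.119 CPM in 175QK772T, against 1.71, 3.24, 1.72 and 3.14 CPM in WT (-5.42 ± 0.47). Wnt8b, a secreted Wnt ligand, was at 0, 0.0779, 0.0698 and 0.119 CPM in 175QK772T, against 1.33, 3.82, 1.03 and 3.23 CPM in WT (-4.93 ± 0.46). Each was close to 0 in all 175QK772T libraries. Sec14l3 (-4.27 ± 0.23), the activin antagonist Fst (-3.96 ± 0.36), the orphan receptor Gpr139 (-3.72 ± 0.36), the tyrosine phosphatase Ptpn7 (-3.54 ± 0.39), Vwa7 (-3.97 ± 0.29), Odf4 (-3.13 ± 0.32), AC128672.1 (-3.93 ± 0.32) and the noncoding RNA Abhd11os (-4.82 ± 0.26) complete the 12 with Scn4b (edgeR adjusted p at most 5.51e-05). Vwa7, Fst and Abhd11os overlap other genes on the opposite strand and are uncertain.

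The 12 largest rises, chosen the same way, were mostly of developmental transcription factors close to 0 in the WT striatum. Shox2, a homeobox factor of limb and heart development, was at 12.4, 15.6, 15 and 16.5 CPM in 175QK772T, against 0.293, 0.0232, 0.0447 and 0.152 CPM in WT (6.91 ± 0.33, edgeR adjusted p = 1.64e-07); Rsrc1 overlaps it on the opposite strand. Wt1, a zinc-finger factor of kidney and gonad development, was at 9.48, 8.93, 7.02 and 9.17 CPM in 175QK772T, against 0.08, 0.116, 0.112 and 0.122 CPM in WT (6.30 ± 0.18, edgeR adjusted p = 1.91e-09). Lmx1b, a LIM-homeobox factor of serotonin and dopamine neuron development, was at 6.02, 6.99, 9.42 and 13.7 CPM in 175QK772T, against 0.133, 0.208, 0.112 and 0.0305 CPM in WT (6.10 ± 0.33, edgeR adjusted p = 4.81e-07). All 4 175QK772T libraries were high and all 4 WT libraries near 0 for each. Barx1, a homeobox factor of craniofacial and stomach development, was at 7.63, 6.99, 6.56 and 2.55 CPM in 175QK772T and had no counts in WT, at least 287-fold higher against a floor of 3 counts over the WT group (edgeR adjusted p = 8.68e-06). The factors Pax2 (6.26 ± 0.63), Pou4f1 (5.66 ± 0.43), Twist1 (4.46 ± 0.33) and Skor1 (4.38 ± 0.34), the neuronal glycine transporter Slc6a5 (4.94 ± 0.37), the serine protease Prss16 (2.89 ± 0.45) and the noncoding RNA Crnde (2.62 ± 0.18) rose too (edgeR adjusted p at most 0.000667), and Hoxc4, the last of the 12, is described with its family. Of the 175QK772T libraries, replicate 4 was the lowest for Barx1, Pax2, Pou4f1, Twist1, Skor1 and Prss16 and the highest for Shox2, Lmx1b and Crnde.

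**Figure D3:**
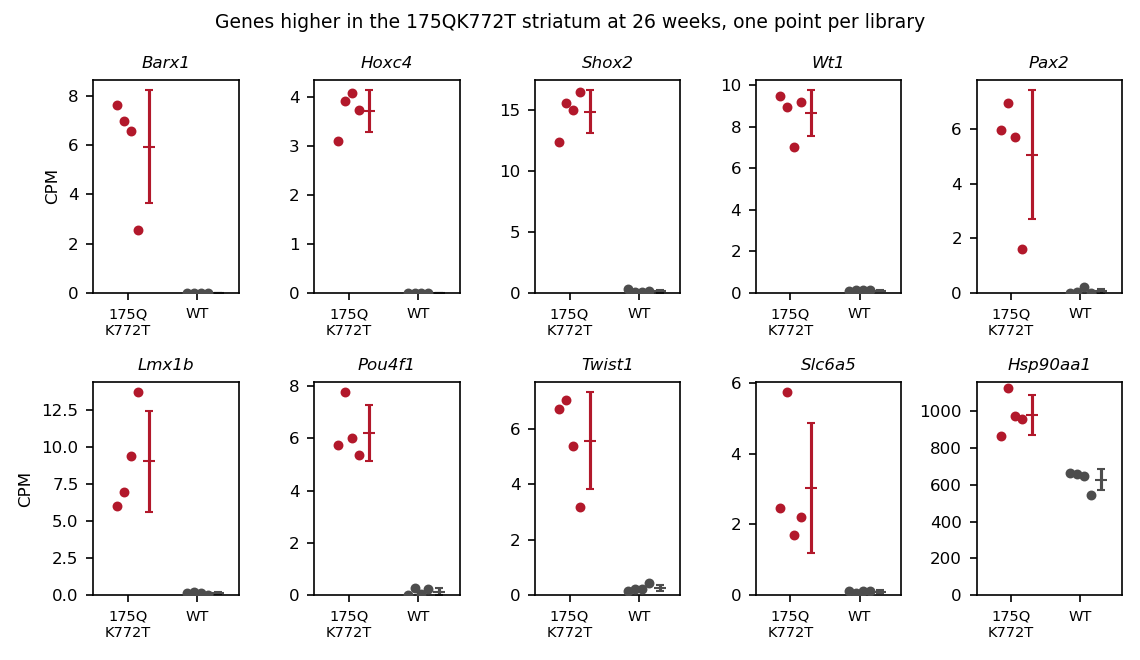
CPM in each library (points), with the mean and SD of 4 mice, for 10 genes higher in 175QK772T (left) than in WT (right). The transcription factors lie near 0 in WT, as Wt1 with at most 0.122 CPM, while the chaperone Hsp90aa1 is abundant in both genotypes.

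Hox genes set position along the body axis and are normally silent in the forebrain. Hoxc4 was at 3.1, 3.92, 4.08 and 3.74 CPM in 175QK772T, 600 read pairs in all, and had no counts in WT, at least 195-fold higher against the floor (edgeR adjusted p = 3.18e-06). Hoxd8 was at 2.68, 2.21, 1.4 and 0.968 CPM in 175QK772T and Hoxc8 at 0.912, 1.32, 0.558 and 0.561 CPM; neither had WT counts, and they were at least 90.7-fold and at least 43.3-fold higher. Hoxc5 was at 2.4, 1.84, 1.61 and 2.02 CPM in 175QK772T with 1 count in all of WT, a ratio of 315 with an exact 95% interval of 56.2 to 12500. Hoxb8 was uneven, at 0.995, 2.67, 2.58 and 0.0849 CPM in 175QK772T, and so was Hoxb9, at 0.636, 2.18, 1.95 and 0.0849 CPM, both lowest in replicate 4. Over all 39 Hox genes the summed level was 10.4 to 22 CPM in 175QK772T and 0.16 to 0.548 CPM in WT. Only 13 of the 39 were abundant enough to test, and these passed the filter on low counts through the mutant groups, so that all 13 rose is no separate evidence. The other 26 include 7 with no counts. Floors and intervals cover counting error only.

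Among 53 other developmental transcription factors 31 were tested, of which 17 rose and none fell; the filter again kept members that were high in a mutant group. Besides those above, Onecut1 (5.30 ± 0.62), Lhx1 (6.20 ± 1.10), Irx5 (2.97 ± 0.29) and En2 (1.59 ± 0.38) rose (edgeR adjusted p at most 0.00877). Tal1, a factor of blood and midbrain lineages, was at 12.7, 17.6, 9.32 and 2.72 CPM in 175QK772T, against 1.92, 1.99, 2.82 and 1.71 CPM in WT, and replicate 4 lay inside the WT range (2.19 ± 0.41, edgeR adjusted p = 0.0021). Pax6 and Gata2, expressed in WT as well, did not pass (0.21 ± 0.11 and 0.36 ± 0.13, edgeR adjusted p = 0.202 and 0.0592).

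Promoter sequences are shown for a pair of genes near 0 in WT (Barx1, Pou4f1) and a pair with deep falls (Gpx6, Scn4b), because dense CG dinucleotides mark the promoters of many developmental regulators. They are RefSeq sequences of GRCm38.p6 from 250 bases before to 50 after the annotated start, 5′ to 3′ on the gene's strand, with every CG in capitals. Barx1 is at chr13:48662786-48663085 (plus strand), Pou4f1 at chr14:104467950-104468249 (minus), Gpx6 at chr13:21311953-21312252 (plus) and Scn4b at chr9:45138374-45138673 (plus).
Barx1: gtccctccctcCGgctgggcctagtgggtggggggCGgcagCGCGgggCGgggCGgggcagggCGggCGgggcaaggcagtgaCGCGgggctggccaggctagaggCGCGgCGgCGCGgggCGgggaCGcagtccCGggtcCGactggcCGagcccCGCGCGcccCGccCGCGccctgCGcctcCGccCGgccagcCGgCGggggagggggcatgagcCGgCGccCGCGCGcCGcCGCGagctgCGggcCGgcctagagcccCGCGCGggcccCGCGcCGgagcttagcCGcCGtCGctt
Pou4f1: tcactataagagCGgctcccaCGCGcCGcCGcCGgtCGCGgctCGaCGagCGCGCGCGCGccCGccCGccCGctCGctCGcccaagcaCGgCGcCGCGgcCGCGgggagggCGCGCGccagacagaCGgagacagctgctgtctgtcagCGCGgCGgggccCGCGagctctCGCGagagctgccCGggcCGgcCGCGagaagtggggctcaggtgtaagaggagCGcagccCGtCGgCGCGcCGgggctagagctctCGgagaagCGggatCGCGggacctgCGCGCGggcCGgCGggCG
Gpx6: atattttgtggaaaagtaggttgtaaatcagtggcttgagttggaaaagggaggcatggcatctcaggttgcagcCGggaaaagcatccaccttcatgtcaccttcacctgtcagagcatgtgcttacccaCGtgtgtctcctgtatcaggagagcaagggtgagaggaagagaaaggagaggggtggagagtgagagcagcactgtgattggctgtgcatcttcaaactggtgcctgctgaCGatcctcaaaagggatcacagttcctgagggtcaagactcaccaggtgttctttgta
Scn4b: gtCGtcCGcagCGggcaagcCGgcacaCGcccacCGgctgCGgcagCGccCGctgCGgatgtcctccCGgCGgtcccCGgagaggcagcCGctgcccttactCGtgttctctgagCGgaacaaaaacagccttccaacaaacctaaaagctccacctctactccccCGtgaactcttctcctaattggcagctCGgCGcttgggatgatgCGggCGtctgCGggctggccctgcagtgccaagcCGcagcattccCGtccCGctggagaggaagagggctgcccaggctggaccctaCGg
The Barx1 window holds 50 CG dinucleotides and the Pou4f1 window 57, more than 99.2% and 99.8% of 27025 promoters. The Gpx6 window holds 3 and the Scn4b window 26, more than 23.9% and 83.2% of promoters. Barx1 and Pou4f1 had the most CG of the largest rises with an entry, with Skor1 next at 46 and Pax2 lowest at 7. The 10 of the 12 largest rises with an entry had a median of 23 CG (7 to 57). The 8 of the 12 largest falls with an entry had a median of 6.5 (3 to 26), and all promoters had a median of 7. Other sets differed: 17 of 23 shared projection neuron genes, nearly all lower, had an entry and a median of 19 (5 to 44). Of 13 tested Hox genes, all higher, 6 had an entry, with a median of 11 (6 to 29). Where several starts were listed the most upstream was used. These counts are a description and were not tested.

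Clustered protocadherins are adhesion proteins that give neurons individual surface identities. Of 56 tested 20 rose (35.7%, against 10.9% of all tested genes) and 5 fell (8.93%, against 12.4%), with a median of 0.23. Pcdhb3 was at 9.67, 9.43, 7.22 and 7.64 CPM in 175QK772T, against 4.53, 3.82, 4.29 and 3.9 CPM in WT, without overlap (1.03 ± 0.10, edgeR adjusted p = 2.25e-05). Pcdhb16 rose as well (0.78 ± 0.11, edgeR adjusted p = 0.00027). The falls were of Pcdhb8, Pcdhga6, Pcdhga7, Pcdhga8 and Pcdhgb7, led by Pcdhga6 at 15.5, 16.1, 14.1 and 14.4 CPM in 175QK772T, against 34.4, 31.7, 22.7 and 28.7 CPM in WT (-0.97 ± 0.11, edgeR adjusted p = 8.75e-05). Members of the alpha and gamma clusters share exons, so their values are uncertain. Without 175QK772T replicate 3, 3 members fell.

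Of 20 chaperones and genes of the heat shock and unfolded protein responses 3 rose (15%) and 5 fell (25%). Of all tested genes 10.9% rose and 12.4% fell. Hsp90aa1, the inducible cytosolic HSP90, was at 864, 1130, 974 and 960 CPM in 175QK772T, against 666, 660, 646 and 543 CPM in WT (0.64 ± 0.09, edgeR adjusted p = 0.00026). Hspa8, the constitutive HSC70, was at 1610, 1850, 1650 and 1590 CPM in 175QK772T, against 1310, 1290, 1220 and 1050 CPM in WT (0.46 ± 0.08, edgeR adjusted p = 0.00173). Neither overlapped, and the HSP40 gene Dnajb1 rose too (0.31 ± 0.07, edgeR adjusted p = 0.0053). Trib3 (-1.69 ± 0.23), Sdf2l1 (-0.64 ± 0.11) and Ddit3 (-0.38 ± 0.08), induced by stress of the endoplasmic reticulum, fell (edgeR adjusted p at most 0.00475), and Hspa5, its main chaperone, did not pass (-0.09 ± 0.10). The small heat shock protein Hspb1 (-0.52 ± 0.15) and the HSP90 of the endoplasmic reticulum, Hsp90b1 (-0.29 ± 0.09), fell as well (edgeR adjusted p at most 0.0268). Hspa1a (0.34 ± 0.28), Hspa1b (-0.12 ± 0.22) and Hsph1 (0.04 ± 0.09), heat-inducible chaperones, did not pass. The number that fell was 3 without 175QK772T replicate 1, without 175QK772T replicate 4 or without WT replicate 1, and 5 rose without WT replicate 3.

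Capicua represses ETS factors and feedback inhibitors of receptor tyrosine kinase signalling. Of 13 tested targets 2 fell and none rose, with a median of -0.05. The share that fell, 15.4%, was near the 12.4% of all tested genes. Spry2, a feedback inhibitor, was at 36.8, 37.2, 34.2 and 30 CPM in 175QK772T, against 50.5, 65.6, 51.1 and 73.5 CPM in WT, without overlap (-0.79 ± 0.11, edgeR adjusted p = 0.00039). Spred1, another inhibitor, fell by 0.42 (edgeR adjusted p = 0.00656). Etv5, an ETS factor, was at 73.3, 82, 74.5 and 54.3 CPM in 175QK772T, against 73.7, 118, 87 and 85.6 CPM in WT; it overlapped and did not pass (-0.37 ± 0.15, edgeR adjusted p = 0.1). Etv4 (-0.02 ± 0.14) and Dusp6 (-0.40 ± 0.21) did not pass either. Without WT replicate 1, 4 targets fell, and without WT replicate 2, 1 rose. The Capicua octamers TGAATGAA and TGAATGGA, searched on both strands, were in 1 of 8 target promoters with an entry (12.5%) and in 2.47% of all promoters. Among 11 partners of ataxin-1 only the histone deacetylase Hdac3 rose (9.09%, against 10.9% of all tested genes), and none fell. The Hdac3 change was 0.31 ± 0.05 (edgeR adjusted p = 0.00109). Cic, which encodes Capicua, and Rbm17 did not pass (0.05 ± 0.09 and -0.05 ± 0.07).

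Activity-regulated genes varied widely between mice. Of 16 tested 1 fell (6.25%, against 12.4% of all tested genes), and the other 15 did not pass. The fall was of Egr3, at 101, 94.1, 76.9 and 79.6 CPM in 175QK772T, against 125, 206, 153 and 175 CPM in WT (-0.91 ± 0.15, edgeR adjusted p = 0.000995). Fos, an immediate early transcription factor, was at 36.4, 24.5, 12.5 and 6.66 CPM in 175QK772T, against 3.52, 11.1, 9.39 and 21.9 CPM in WT, with the groups overlapping (0.58 ± 0.65, edgeR adjusted p = 0.564). Of these genes 2 rose without 175QK772T replicate 4, 1 without 175QK772T replicate 3 and 1 without WT replicate 4. Of 20 cholesterol synthesis genes 1 rose (5%, against 10.9% of all tested genes) and 2 fell (10%, against 12.4%). However, 6 fell without WT replicate 1, 5 without 175QK772T replicate 3 and 1 without any 1 of the other 6 libraries. Of 15 interferon response genes 1 rose and 1 fell (6.67% each, against 10.9% and 12.4% of all tested genes). The fall was of Ifi27l2a (-1.27 ± 0.38, edgeR adjusted p = 0.0319). No gene of the list was called without 175QK772T replicate 4 or without WT replicate 4. Ifi27l2a also did not pass without 175QK772T replicate 1 or 3 or WT replicate 1, while 4 genes of the list fell without WT replicate 2.

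Markers of glia and vessels had smaller median changes than those of projection neurons. Of 12 astrocyte markers 7 fell (58.3%) and none rose, with a median of -0.29. Of 13 endothelial and mural markers 38.5% fell, and of all tested genes 12.4%. Slc1a2, the main astrocytic glutamate transporter, was at 2340, 2550, 2380 and 2010 CPM in 175QK772T, against 3590, 3330, 3540 and 3230 CPM in WT, without overlap (-0.56 ± 0.07, edgeR adjusted p = 0.000166); an annotated gene overlaps it on the opposite strand. Sox9 fell by 0.48, Slc4a4 by 0.58 and Gja1 by 0.36 on the log2 scale (edgeR adjusted p at most 0.0018). Gfap, a marker of reactive astrocytes, was at 55.9, 97.3, 79 and 76.4 CPM in 175QK772T, against 55.8, 84.5, 80.9 and 117 CPM in WT, and did not pass (-0.11 ± 0.22, edgeR adjusted p = 0.777). Of 13 endothelial and mural markers 5 fell, among them Rgs5 (-0.46 ± 0.06), Ly6c1 (-0.43 ± 0.06), Slco1a4 (-0.34 ± 0.06) and Flt1 (-0.27 ± 0.07; edgeR adjusted p at most 0.0115). None of 12 oligodendrocyte, 10 oligodendrocyte precursor, 12 microglia, 7 ependymal or 12 choroid plexus genes passed with all 12 libraries in the edgeR fit, nor with DESeq2; at an unadjusted p under 0.05 in edgeR there were 3, 1, 3, 2 and 0 of them in that order. Other edgeR settings called some. With only the 2 genotypes compared, 10 oligodendrocyte, 1 oligodendrocyte precursor and 2 ependymal genes fell. With no filter on low counts, 12 oligodendrocyte, 2 oligodendrocyte precursor, 1 microglia and 3 ependymal genes fell and 4 choroid plexus genes rose. With the cortical marker level as a covariate, 2 oligodendrocyte, 2 microglia and 2 ependymal genes fell. With 1 library left out, 1 microglia gene fell without 175QK772T replicate 4, WT replicate 3 or WT replicate 4, and 1 ependymal gene without 175QK772T replicate 1. The log2 fold changes of the oligodendrocyte markers were all negative, from -0.59 to -0.27. The summed microglia marker level was 554 to 662 CPM in 175QK772T and 633 to 754 CPM in WT.

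Of the markers of neighbouring neurons few passed. Of 9 thalamic and hypothalamic markers 1 rose (11.1%), and of 12 cortical glutamatergic markers 1 fell (8.33%). Of 9 pallidal and septal markers 2 rose (22.2%) and 1 fell (11.1%). Of all tested genes 10.9% rose and 12.4% fell. Slc17a6, the glutamate transporter of thalamic and hypothalamic neurons, was at 11.7, 20.1, 9.39 and 3.97 CPM in 175QK772T, against 4.74, 2.08, 8.74 and 2.83 CPM in WT. The groups overlapped, and it rose (1.31 ± 0.39, edgeR adjusted p = 0.0309), but did not pass without 175QK772T replicate 2 or 3 or without WT replicate 1, 2 or 4. Of 12 cortical glutamatergic markers Lamp5 fell (-0.65 ± 0.12, edgeR adjusted p = 0.00206) and none rose; 1 rose without 175QK772T replicate 4 and 3 without WT replicate 3. Of 9 pallidal and septal markers Trpc4 (0.62 ± 0.14) and Prdm12 (1.68 ± 0.56) rose and Lypd6 fell (-0.50 ± 0.14; edgeR adjusted p at most 0.0465), and 1 rose without any 1 of 7 libraries, 175QK772T replicate 3 being the exception. Lypd6 did not pass without 175QK772T replicate 1, 2 or 4 or without WT replicate 2, 3 or 4. The part of these other cell types in the results was not tested.

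**Figure D4:**
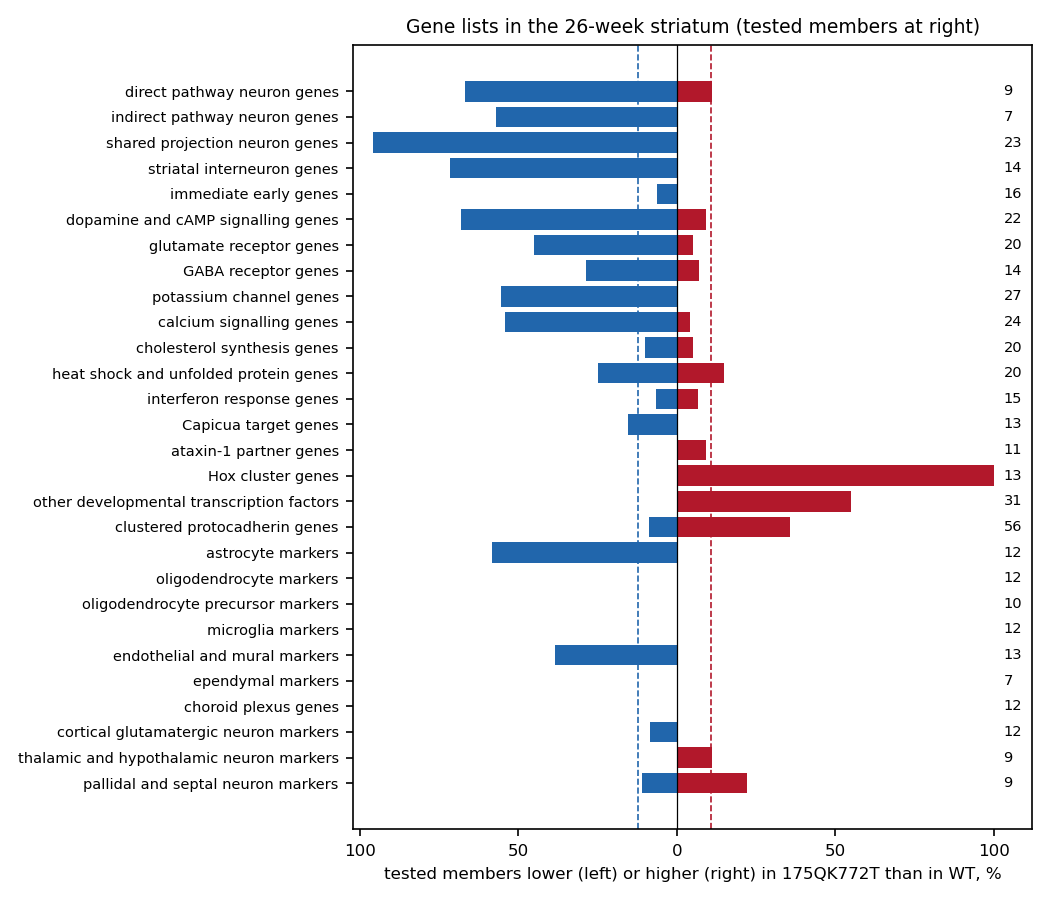
Percent of tested members of each gene list that were lower (left) or higher (right) in 175QK772T than in WT, with the number tested at the right edge. Dashed lines mark the 12.4% of all tested genes that were lower and the 10.9% that were higher; projection neuron lists reach far to the left, and the Hox list holds only members that the filter kept through a mutant group.

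Changes were already present at 10 weeks, in other mice sequenced as another batch, so that age and batch cannot be told apart. There the test called 3994 of 20998 genes between 175QK772T and WT (19%), with 1829 higher (8.71%) and 2165 lower (10.3%). The 10-week libraries were deeper, with 77309551 to 91879186 read pairs in 175QK772T and 77061358 to 93146278 in WT, above every 26-week library compared. Their counts are strand-specific, while the strand setting at 26 weeks is not stated. Of the 4600 genes called at 26 weeks 2507 were called the same way at 10 weeks, which is 54.5% of the 26-week calls and 62.8% of the 10-week calls, and 4 were called the opposite way. Gsg1l, an auxiliary subunit of AMPA receptors, was at 54.1, 47.5, 41.4 and 39.3 CPM in 175QK772T, against 202, 178, 183 and 183 CPM in WT at 26 weeks (-2.04 ± 0.09). At 10 weeks it was at 61.4 ± 3.96 CPM in 175QK772T and 186 ± 14.2 CPM in WT (SD, n = 4; -1.60 ± 0.07, edgeR adjusted p = 8.6e-08). Ddit4l, an inhibitor of mTOR signalling, had log2 fold changes of -2.51 ± 0.11 at 26 weeks and -2.47 ± 0.13 at 10 weeks, and Them6 of -0.98 ± 0.07 at 26 weeks and -0.91 ± 0.05 at 10 weeks. Polr2a, which encodes the catalytic core subunit of RNA polymerase II, stood at 144, 162, 149 and 147 CPM in 175QK772T, against 76.6, 82.7, 80.9 and 78.1 CPM in WT at 26 weeks (0.92 ± 0.05), and rose at 10 weeks too (0.58 ± 0.04). Sfmbt2, a Polycomb group protein, rose at both ages (2.44 ± 0.14 at 26 weeks and 1.59 ± 0.09 at 10 weeks). Wt1 at 10 weeks was at 5.44 ± 0.31 CPM in 175QK772T and 0.0391 ± 0.041 CPM in WT (SD, n = 4; edgeR adjusted p = 2.53e-07). The adjusted p of all genes named here was at most 2.6e-06 at 26 weeks (edgeR).

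The 26-week effect minus the 10-week effect passed the test for 42 of 22038 genes (0.191%), 13 with a positive (0.059%) and 29 with a negative difference (0.132%). This count moved with single libraries. Of the 26-week libraries, it was 24 without 175QK772T replicate 2, 110 without 175QK772T replicate 4, 27 without WT replicate 2 and 197 without WT replicate 3. Of the 10-week libraries, it was 82 without 175QK772T replicate 3, 15 without 175QK772T replicate 4, 23 without WT replicate 1, 77 without WT replicate 3 and 27 without WT replicate 4. Shox2 at 10 weeks was at 0.498 ± 0.125 CPM in 175QK772T and 0.557 ± 0.632 CPM in WT (SD, n = 4), and its difference was 6.83 ± 0.73 on the log2 scale (edgeR adjusted p = 0.000131). Lmx1b (4.82 ± 0.73), Slc6a5 (3.77 ± 0.52), Skor1 (3.53 ± 0.57) and the collagen prolyl hydroxylase P4ha3 (1.28 ± 0.23) also had a greater effect at 26 weeks (edgeR adjusted p at most 0.0154). Scn4b at 10 weeks was at 432 ± 47.2 CPM in 175QK772T and 1950 ± 350 CPM in WT (SD, n = 4), and its effect was more negative at 26 weeks (-1.50 ± 0.22, edgeR adjusted p = 0.00273). So were those of Gpx6 (-4.22 ± 0.57), Adora2a (-1.25 ± 0.25), Hrh3 (-0.94 ± 0.16), Htr1b (-1.19 ± 0.21) and Gabrd (-0.66 ± 0.12; edgeR adjusted p at most 0.0422). Dsg1c, a desmosomal cadherin, was higher in 175QK772T at 10 weeks (1.26 ± 0.19, edgeR adjusted p = 0.00054) and lower at 26 weeks (-1.38 ± 0.27, edgeR adjusted p = 0.00316). Drd1 (-0.99 ± 0.22) and Drd2 (-0.98 ± 0.21) did not pass (edgeR adjusted p = 0.0719 and 0.0745).

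**Figure D5:**
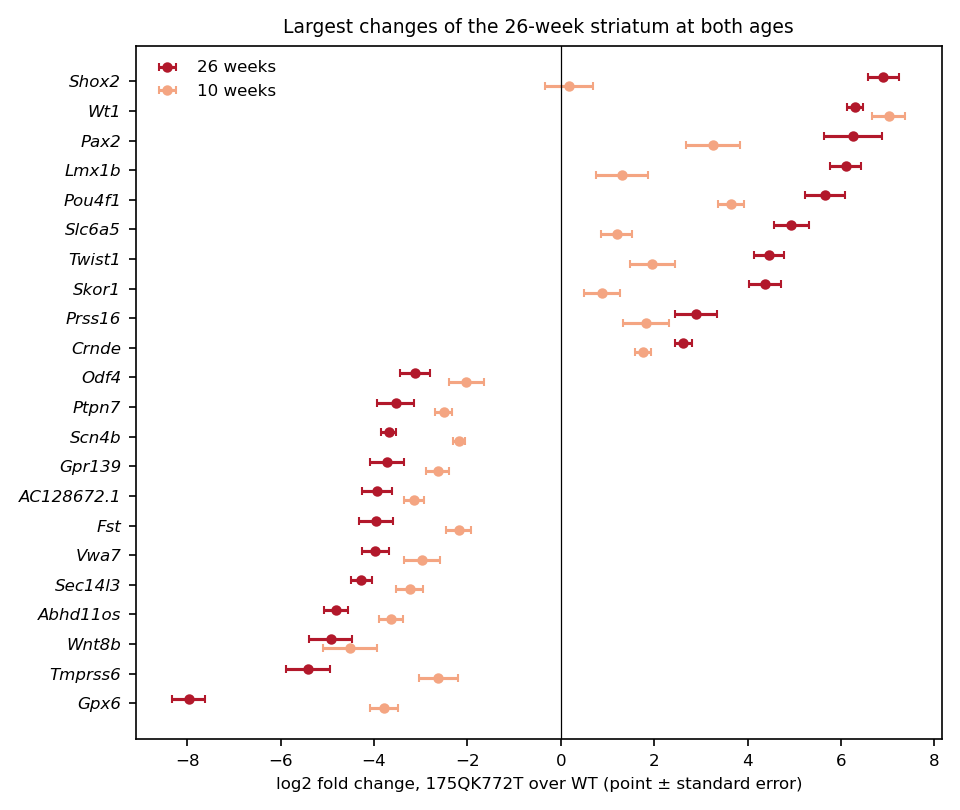
Log2 fold change of 175QK772T over WT with its standard error at 26 weeks (upper point of each pair) and at 10 weeks (lower point), for the largest changes of the 26-week striatum, leaving out genes with no WT counts. The genes were chosen by their 26-week values; Shox2 is at 6.91 at 26 weeks and at 0.17 at 10 weeks, while Wt1 is high at both ages.

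Against 175Q mice of the same age, in a comparison that shares the 175QK772T libraries with the one against WT, the test called 2674 genes (13.6%), of which 1434 were higher (7.28%) and 1240 lower (6.3%) in 175QK772T. The count was 1626 without 175QK772T replicate 2, 1572 without 175QK772T replicate 3 and 1544 without 175Q replicate 2. Without 175QK772T replicate 3, 1117 were higher and 455 lower, so that 71.1% of calls were higher, against 53.6% with all libraries. Without any 1 of the other 7 libraries 639 to 1276 were lower. In 175Q against WT 8931 genes were called (45.4%). Scn4b averaged 133 CPM in 175QK772T, 28.1 CPM in 175Q and 1700 CPM in WT, and was higher in 175QK772T than in 175Q (2.22 ± 0.16, edgeR adjusted p = 2.35e-05). Adora2a averaged 48 CPM in 175QK772T and 21.6 CPM in 175Q (1.16 ± 0.22), Drd2 58.8 CPM in 175QK772T and 23.1 CPM in 175Q (1.35 ± 0.18), and Penk 225 CPM in 175QK772T and 103 CPM in 175Q (1.13 ± 0.21; edgeR adjusted p at most 0.00557). Of the 23 shared projection neuron genes 17 were higher and none lower than in 175Q. The largest differences upward among abundant enough genes included Cd4, at 18.3 CPM in 175QK772T, 1.64 CPM in 175Q and 109 CPM in WT (3.47 ± 0.32 against 175Q), and the growth factor Fgf3, at 1.08 CPM in 175QK772T, 0.0578 CPM in 175Q and 7 CPM in WT (4.17 ± 0.71), with Dgat2l6 (2.85 ± 0.52), AC128672.1 (3.74 ± 0.63) and Ptpn7 (3.18 ± 0.56; edgeR adjusted p at most 0.00445).

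Capicua targets were higher than in 175Q in 11 of 13 cases and lower in none. Of all tested genes 7.28% were higher than in 175Q and 6.3% lower. Etv5 averaged 71 CPM in 175QK772T and 39.2 CPM in 175Q (0.86 ± 0.15), and Etv4 9.34 CPM in 175QK772T and 5.47 CPM in 175Q (0.78 ± 0.14; edgeR adjusted p at most 0.00452). Activity-regulated genes were higher in 10 of 16 cases, among them Arc (2.03 ± 0.45, edgeR adjusted p = 0.0115). Wt1 averaged 8.65 CPM in 175QK772T and 8.42 CPM in 175Q (0.04 ± 0.11), Ryr1 23.3 CPM in 175QK772T and 22.6 CPM in 175Q (0.05 ± 0.14), and Chat 7.28 CPM in 175QK772T and 6.42 CPM in 175Q (0.18 ± 0.23); none of the 3 passed (edgeR adjusted p = 0.837, 0.858 and 0.649), which does not show that the genotypes are alike. Hoxc4 was higher in 175QK772T, at 3.71 CPM against 1.68 CPM in 175Q (1.19 ± 0.23, edgeR adjusted p = 0.0106). The largest differences downward included those of the interleukin-2 receptor subunit Il2rb (-1.51 ± 0.20), the exocytosis regulator Baiap3 (-1.43 ± 0.21), the lipid-droplet protein Plin4 (-1.41 ± 0.27) and the mitotic checkpoint kinase Bub1b (-1.40 ± 0.26; edgeR adjusted p at most 0.00539). Against WT, Baiap3 was higher (1.39 ± 0.21) and Il2rb lower (-2.03 ± 0.20) in 175QK772T (edgeR adjusted p at most 0.000566), and Plin4 and Bub1b did not pass (edgeR adjusted p = 0.918 and 0.534).

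In other 26-week regions, taken from the same mice and so not independent of the striatum, 3765 of 19809 genes were called between 175QK772T and WT in the hippocampus (19%, with 9.1% higher and 9.91% lower), 412 of 19787 in the medulla (2.08%, with 0.561% higher and 1.52% lower) and 57 of 19156 in the cerebellum (0.298%, with 0.0679% higher and 0.23% lower). With DESeq2 the counts were 4150 in the hippocampus, 935 in the medulla and 377 in the cerebellum. The cerebellum count was 16 to 35 without any 1 of the 8 libraries, and the medulla count was 926 without 175QK772T replicate 2, 221 without 175QK772T replicate 4, 237 without WT replicate 1, 241 without WT replicate 3 and 210 without WT replicate 4. Of the 24 largest striatal changes 15 of 21 tested were called in the hippocampus, namely the 12 rises and the falls Scn4b, Fst and Tmprss6. In the medulla 3 of 20 tested were called, Slc6a5, Gpr139 and Scn4b, and in the cerebellum none of 14 in edgeR or DESeq2, nor any at an unadjusted p under 0.05 in edgeR. Hoxc4 was at 2.61, 3.24, 2.02 and 2.17 CPM in the 175QK772T hippocampus and had no counts in the WT hippocampus. In the medulla, where WT expresses it, Hoxc4 was at 25.8 to 35.1 CPM in 175QK772T and 19.7 to 30.3 CPM in WT. In the cerebellum the library labelled WT replicate 1 stood apart. Drd1 was at 0.121 to 0.351 CPM in 175QK772T cerebella, against 9.24 CPM in that library and at most 0.626 CPM in the other WT cerebella. Barx1 was at most 0.0528 CPM in 175QK772T cerebella, against 1.15 CPM in that library and at most 0.0696 CPM in the other WT cerebella. Without it 35 genes were called in the cerebellum, none of them among the largest striatal changes. In the cortex the library labelled WT replicate 1 stood apart, with Hoxc4 at 18.4 CPM against at most 0.0218 CPM in the other WT cortices. With it 1756 of 19888 genes were called in the cortex (8.83%, with 4% higher and 4.83% lower) and without it 4641, and DESeq2 called 2765 with it, while without 175QK772T replicate 1, 2, 3 or 4 the counts were 1039, 930, 995 and 1011; of 19 tested largest striatal changes 7 were called with it and 14 without it. Shox2 was at 12, 14.1, 7.57 and 11.3 CPM in the 175QK772T cortex, against 8.82, 0.0191, 0.0204 and 0.0218 CPM in the WT cortex (2.80 ± 1.09 with that library and edgeR adjusted p = 0.137, 8.89 ± 0.38 without it and edgeR adjusted p = 2.23e-11).

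Atxn1 lies on chromosome 13, as do Barx1, Gpx6, Drd1, Fst and Prss16. The promoter windows of Barx1 (from 48662786) and Drd1 (from 54055609) lie within 10 Mb of Atxn1. That of Gpx6 (from 21311953) lies more than 20 Mb away. Within 10 Mb of Atxn1 the test called 51 of 173 genes (29.5%), with 22 higher and 29 lower, against 23.4% of all genes. The share was 31.3% within 5 Mb and 25.6% within 20 Mb. The part of sequence beside the targeted allele in these values was not tested.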

How the data were processed

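Poly(A)-selected RNA was sequenced as paired reads. The authors deposited raw gene-level counts, in which each unit is a read pair; per the labels and the submitters' processing notes the tools were bcl2fastq 2.20.0, Trimmomatic 0.33, HISAT2 2.1.0 and featureCounts (Subread 1.6.2) on GRCm38. The 10-week counts are strand-specific, per the file headers; the setting of the 26-week counts is not given in the sources used here. Counts from reads without molecular identifiers carry counting error, and intervals and floors cover that error only.

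For the 26-week striatum, 12 libraries (175QK772T, 175Q and WT, 4 mice each) entered 1 fit, so they share the estimate of spread. Genes were kept by filterByExpr on genotype, scaled by the trimmed mean of M values and tested with edgeR 4.0.16 (glmQLFit, glmQLFTest; R 4.3.3) with genotype and sex as terms, and p-values were adjusted by Benjamini-Hochberg with a threshold of 0.05. Per-library CPM uses the scaled library sizes. The 10-week striatum and the other regions were fitted likewise, and the difference between ages in a joint fit. In simulated counts of 175QK772T against WT at 26 weeks (19692 genes), 8% of genes changed 1.25-fold, 46% changed 1.5-fold, 66% changed 2-fold and 92% changed 4-fold were recovered. Each fold was given to 50 genes, a far smaller share than the 23.4% called in the real data. Counts were drawn independently, without tissue differences shared by many genes. These shares therefore need not hold for the real comparison.

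Named genes are Atxn1, the 12 largest called rises and 12 largest called falls with a mean of at least 1 CPM and no overlap, up to 4 called members of smallest adjusted p per gene list, up to 10 genes called at both ages, and up to 5 genes each way from the comparison with 175Q and from the difference between ages. Some genes that this rule picks are not reported here. Other list members named were chosen after their values were seen. The groups, lists and rules were chosen with earlier results of these data known. Same-numbered 175QK772T and WT mice are different mice; the correlations of their deviations were 0.00764, -0.194, -0.000966 and 0.0148, so the numbers pair no samples. Alternatives were DESeq2 1.42.0, its size factors, no filter, no sex term, a replicate block, only the genotypes compared, and each replicate left out.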

Additional observations from a re-analysis of the deposited data

Results flagged for a closer look

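In 10 of 220 sets of 4 libraries a single library lay far from the other 3, judged by its gap to the nearest divided by the range of the 4 (Dixon's ratio); chance gives this in about 1 in 20 groups. Among 175QK772T libraries the ratio was 0.945 for Kcnip2 and 0.846 for Srebf2, each from replicate 4. Among WT libraries it was 0.885 for Pax2, 0.904 for Pde10a, 0.887 for Tm7sf2, 0.886 for Trib3, 0.831 for Hsp90aa1, 1 for Hoxc5 and 0.852 for Ccdc42. The Pax2, Pde10a and Tm7sf2 values came from WT replicate 3, those of Trib3 and Ccdc42 from WT replicate 1 and those of Hsp90aa1 and Hoxc5 from WT replicate 4. Hoxc5 had 1 count in that library and none in the other 3.

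The effect of 175QK772T against WT differed between 26 and 10 weeks for 16 genes named in the report or by its rule (edgeR test of the difference, adjusted p at most 0.0422), and ages are also sequencing batches. The log2 difference was positive for Shox2 (6.83), Lmx1b (4.82), Slc6a5 (3.77), Skor1 (3.53), P4ha3 (1.28), Sfmbt2 (0.86) and Polr2a (0.35). It was negative for Gpx6 (-4.22), Dsg1c (-2.62), Abcc12 (-1.65), Ccdc42 (-1.59), Scn4b (-1.50), Adora2a (-1.25), Htr1b (-1.19), Hrh3 (-0.94) and Gabrd (-0.66).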

How the results depend on the processing

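The count of genes called between 175QK772T and WT at 26 weeks (4600) was 3582 to 5220 under the alternatives listed with the methods, 3723 with a replicate block and 5109 with DESeq2; the settings chosen after seeing the data gave 5233 without 175QK772T replicate 4 and WT replicate 3 and 6055 with the cortical marker covariate. Against 175Q the count (2674) was 1719 with a replicate block and 1544 to 2893 with 1 library left out, and without the filter on low counts the higher genes made up 64.7% of the calls instead of 53.6%. At 10 weeks (3994) it was 3068 with the replicate block. The count for the difference between ages (42) was 859 with no low-count filter, 18 with a replicate block, 282 with DESeq2 and 13 with only the 2 genotypes compared, and 15 to 197 with 1 library left out; the cause was not tested. Under the alternatives run no named gene reversed, and Srebf2, Ifi27l2a, Slc17a6, Lypd6 and Prdm12 lost their call under several of them. Depth limits the Hox genes most, with at most 3 counts over the WT group in 12 of 13 tested.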
